A study of Homo sapiens with 4 samples.

Results

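The genes described here encode 10 receptors through which plasma cells and myeloma cells find, enter and hold to the bone marrow: CXCR4, ITGA4, ITGB1, ITGB7, CD44, CCR1, CCR10, S1PR1, SELPLG and PECAM1. They were picked by name, and each was represented by the probe set with the highest mean over the arrays among the probe sets that the platform annotation gives to a single gene. All 10 were found among the 18377 genes of the table. All arrays held RNA of OPM2, an established line of human multiple myeloma, a plasma cell tumour, so every sample is the same line grown in the same medium with serum. Control cells received DMSO, the drug solvent, for 24 h, and treated cells received VS-5584, also called SB2343, a small molecule that blocks class I PI3 kinases together with mTOR, for 24 h. The sample labels give the dose as 123 nM and the design text as 125 nM. There were 2 arrays per group, titled biological replicates 1 and 2, and nothing says how the cultures were separated. The p-values therefore measure the spread between these samples, which may be technical. The labels name no stroma or endothelium in the cultures, so the values are transcript levels in the line and not homing or adhesion. In a bulk sample, fewer cells making a transcript and less transcript per cell cannot be told apart.

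Homing works in steps. SELPLG (PSGL-1) carries sugars that bind selectins and lets cells roll on the vessel wall, chemokine receptors sense the niche and switch integrins to the binding state, and alpha4 integrins and CD44 then hold the cell to VCAM1, fibronectin and hyaluronan. CXCR4 binds CXCL12, the chemokine made by marrow stroma, and is the receptor best known for keeping plasma cells in the marrow. S1PR1 works in the other direction in lymphocytes, sensing sphingosine 1-phosphate in blood and lymph and guiding exit from tissue. Signals from chemokine receptors and integrins pass in part through class I PI3 kinases.

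After VS-5584, among the 9 members that could be tested, CXCR4 transcript was 1.5-fold lower on average and CCR10 transcript 1.38-fold higher, the other 7 members tested differed by 1.21-fold or less, and S1PR1 was too dim to test. CXCR4, CCR1, CCR10, ITGA4 and CD44 each had treated arrays entirely on one side of the control arrays, with CXCR4 and CCR1 lower and CCR10, ITGA4 and CD44 higher. No member passed limma's test over all genes at an adjusted p of 0.05. The same was true of every gene tested, 0 of 11026, or 0%. Leaving out VS-5584 replicate 1 gave 4 members (CXCR4, CCR10, CCR1 and PECAM1) among 2636 genes, or 23.9%, and leaving out any other array gave 0 members among 2 to 21 genes. At an unadjusted p under 0.05 there were 2 members, CXCR4 (lower) and CCR10 (higher), where 8.93% of all genes tested were lower and 1.49% higher by that rule (10.4% in all). An ordinary two-sample test put 0 members under an adjusted p of 0.05 and 0 under an unadjusted p of 0.05. The limma count of 2 was 5 without VS-5584 replicate 1 and 1 without control replicate 2, where 38.4% and 4.43% of all genes had such a p. The 5 members with separate groups were 3 higher and 2 lower of 9 tested, beside 14.7% higher and 29.2% lower among all genes (43.9% in all). With 1 VS-5584 array left out this count was 8, whichever array it was, beside 85.4% of all genes without replicate 1 and 67.9% without replicate 2. The members' median log2 difference was -0.01 and that of all genes -0.06, and after cyclic loess it was 0.13 against -0.010. Their median absolute difference was 0.20, beside 0.13 for all genes. The list thus held values on both sides of 0 and had no common direction.

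**Figure D1:**
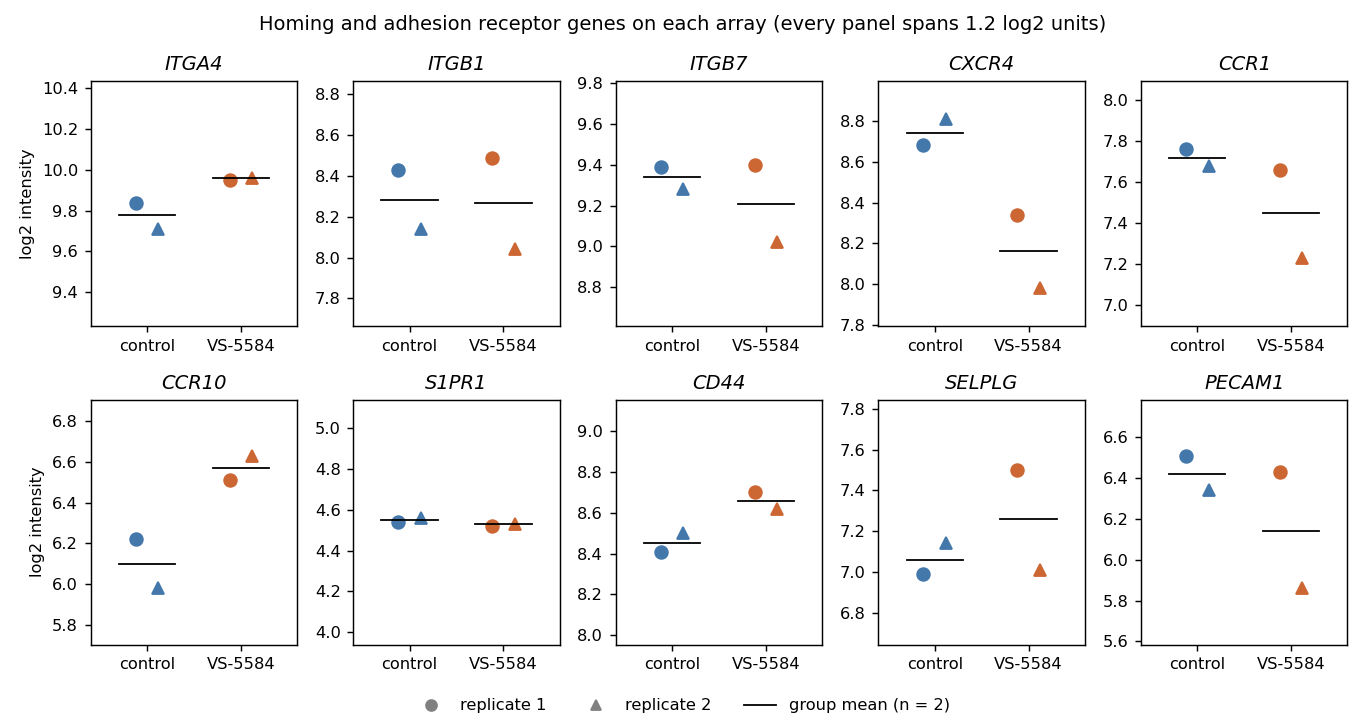
Each panel plots the log2 intensity of 1 member on the 4 arrays, control in blue and VS-5584 in orange, with circles for replicate 1, triangles for replicate 2 and a line at the group mean (n = 2). Every panel spans 1.2 log2 units. CXCR4 lay at 8.68 and 8.81 on the control arrays and at 8.34 and 7.98 on the treated arrays, and CCR10 lay at 6.22 and 5.98 against 6.51 and 6.63.

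The arrays themselves were uneven. Median intensity over 28869 probe sets ran from 49.3 to 52.5, but VS-5584 replicate 2 had its values squeezed together, with 1.74 log2 units between its quartiles against 1.93 to 1.95 on the other 3 arrays. The median tested gene stood at -0.14 against the control mean on that array and at -0.0022 on VS-5584 replicate 1. The labelled cell type matched its markers: all 12 plasma cell genes on the list lay above the limit for dim genes, a mean log2 level of 5.61, led by JCHAIN, the joining chain of secreted antibodies (11.46 to 12.21 over the 4 arrays). Of the markers of other cells, 2 of 7 mature B cell, 2 of 8 T and NK cell, 2 of 8 monocyte and macrophage, 1 of 8 endothelial and 2 of 7 stromal genes lay above that limit. The brightest of each were CD79B (at most 5.83), NKG7 (5.90), CD68 (6.28), CLDN5 (6.43) and COL1A1 (6.41). Plasma cell marker intensities summed to 12285 and 12475 on the control arrays and to between 13297 and 14198 on the treated arrays, and their part in the results below was not tested. The summed markers of the other cells were also slightly higher on the treated arrays for T and NK cells (299 to 307 against 314 to 326), monocytes and macrophages (294 to 296 against 303 to 332), endothelium (307 to 316 against 318 to 325) and stroma (294 to 297 against 308 to 313). For mature B cells the sums were 288 to 293 against 288 to 307. The part of these sums in the members' differences was not tested.

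The start-site windows below come from a supplied set of RefSeq windows. They are shown for the tested members in that set whose treated and control arrays did not overlap. Of the 10 members 7 had a window in the set, and CCR10, SELPLG and PECAM1 had none there. Each window runs from 250 bases before to 50 after the transcript start (RefSeq, GRCh38.p14), 5' to 3' on the gene's own strand, taken at the most upstream start where several are listed. CXCR4 has 3 such windows, and the one shown is chr2:136118100-136118399 on the minus strand. CCR1 is at chr3:46208264-46208563 (minus), ITGA4 at chr2:181457136-181457435 (plus) and CD44 at chr11:35138921-35139220 (plus). Capitals mark 2 short motifs read on either strand, the TATA box TATAAA and the GC box GGGCGG.
CXCR4: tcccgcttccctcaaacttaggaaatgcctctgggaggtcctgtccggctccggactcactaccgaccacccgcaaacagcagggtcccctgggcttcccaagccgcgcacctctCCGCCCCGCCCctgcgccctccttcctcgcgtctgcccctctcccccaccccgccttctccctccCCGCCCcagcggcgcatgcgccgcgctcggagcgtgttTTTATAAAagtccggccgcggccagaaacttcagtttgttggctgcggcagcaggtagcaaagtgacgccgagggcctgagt
CCR1: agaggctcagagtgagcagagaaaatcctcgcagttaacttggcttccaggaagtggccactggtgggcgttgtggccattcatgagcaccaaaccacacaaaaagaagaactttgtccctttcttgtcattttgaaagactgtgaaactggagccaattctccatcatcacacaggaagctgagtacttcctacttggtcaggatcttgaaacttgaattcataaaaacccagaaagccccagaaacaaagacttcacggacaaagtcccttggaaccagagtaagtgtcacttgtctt
ITGA4: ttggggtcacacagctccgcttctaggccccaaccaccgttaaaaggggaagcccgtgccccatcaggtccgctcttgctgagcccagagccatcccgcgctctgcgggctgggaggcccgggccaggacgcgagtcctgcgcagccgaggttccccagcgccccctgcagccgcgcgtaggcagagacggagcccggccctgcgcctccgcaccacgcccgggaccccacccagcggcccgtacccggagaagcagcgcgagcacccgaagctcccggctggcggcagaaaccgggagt
CD44: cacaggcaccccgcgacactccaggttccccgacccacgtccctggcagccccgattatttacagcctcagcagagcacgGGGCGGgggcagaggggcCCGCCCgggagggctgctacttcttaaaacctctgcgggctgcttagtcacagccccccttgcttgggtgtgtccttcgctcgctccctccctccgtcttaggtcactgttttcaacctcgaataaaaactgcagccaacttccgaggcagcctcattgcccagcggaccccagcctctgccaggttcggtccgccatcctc
The CXCR4 window held 3 GC boxes, 2 of them overlapping, and a TATA box read on both strands. CD44 held 2 GC boxes, and CCR1 and ITGA4 held neither motif. Among 35116 RefSeq windows of 300 bases, 45% held a GC box and 11.5% a TATA box. The FOXO motif GTAAACA (3.42% of windows) and the E-box CACGTG (7.26%) were searched on both strands too and matched in none of the 7 members' windows, which says only that these letters are not there. By base composition the 4 windows were mixed, with 66.7% G and C for CXCR4, 45.3% for CCR1, 72.3% for ITGA4 and 63.3% for CD44, beside a median of 58.7% over all windows. CXCR4 and CCR1, the tested members lower on both treated arrays, thus differed in motifs and in base composition in these windows.

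Chemokine receptors showed the widest spread of the members. CXCR4 stood at a log2 intensity of 8.68 on control replicate 1 and 8.81 on control replicate 2, and at 8.34 and 7.98 on VS-5584 replicates 1 and 2. Both treated arrays were thus below both controls, by 0.33 log2 units between the closest arrays. On a linear scale these were intensities of 409 and 449 in control against 325 and 252 in treated cells. The group means were 8.74 ± 0.095 and 8.16 ± 0.26 (SD, n = 2 each), a limma log2 difference of -0.58 ± 0.16 (SE) with a 95% interval of -0.93 to -0.23. Unadjusted p was 0.0044 and adjusted p 0.307 (limma), which placed CXCR4 at rank 156 by p among 11026 genes and at rank 185 counted from the most negative difference. Against the control mean the treated arrays differed by -0.40 and -0.77, so the larger part came from VS-5584 replicate 2. Without that array the difference was -0.40 (limma adjusted p = 0.381). With VS-5584 replicate 1 left out it was -0.77 and passed (limma adjusted p = 0.00311), in a fit in which 23.9% of all genes passed.

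CCR10, the receptor for CCL27 and CCL28 that marks plasma cells of mucosa and skin-homing T cells, went the other way. It stood at 6.22 and 5.98 on control replicates 1 and 2 and at 6.51 and 6.63 on the treated arrays. The treated arrays lay above both controls, with 0.28 between the closest, although the controls themselves were 0.25 apart. The log2 means were 6.10 ± 0.17 for control and 6.57 ± 0.087 for VS-5584 (SD, n = 2), a limma difference of 0.47 ± 0.14 (SE) with a 95% interval of 0.15 to 0.79 (unadjusted p = 0.00907, adjusted p = 0.369). This was the 54th highest difference among the genes tested. The treated arrays gave 0.41 and 0.53 against the control mean, and CCR10 thus differed by nearly the same amount on each. Without VS-5584 replicate 1 the difference was 0.53, and without VS-5584 replicate 2 it was 0.41. It depended more on the controls, at 0.59 without control replicate 1 and 0.35 without control replicate 2. The gene is dim, and subtracting 16 from every intensity before taking logs gave 0.59.

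CCR1, a receptor for CCL3 and CCL5 that myeloma cells and osteoclast precursors carry, stood at 7.76 and 7.68 in control and at 7.66 and 7.23 in treated cells. The groups did not overlap, but the closest arrays were only 0.02 apart. The limma difference was -0.28 ± 0.16 (SE; 95% interval -0.64 to 0.09, adjusted p = 0.566). Nearly all of it came from VS-5584 replicate 2, at -0.49 against the control mean, while VS-5584 replicate 1 was at -0.06. CCR1 was at -0.49 without VS-5584 replicate 1, and without VS-5584 replicate 2 its difference was -0.062. After quantile normalization the groups overlapped.

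S1PR1 lay near the lowest value of the arrays. Its log2 level was 4.54 and 4.56 in control and 4.52 and 4.53 in treated cells, intensities of 23.0 to 23.6 where the lowest value on any array was 19.8 to 20.01. It was left out of the test by the limit for dim genes, so no change could be read for it. Tested with no limit, S1PR1 had treated arrays below both controls, by 0.01 at the closest.

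**Figure D2:**
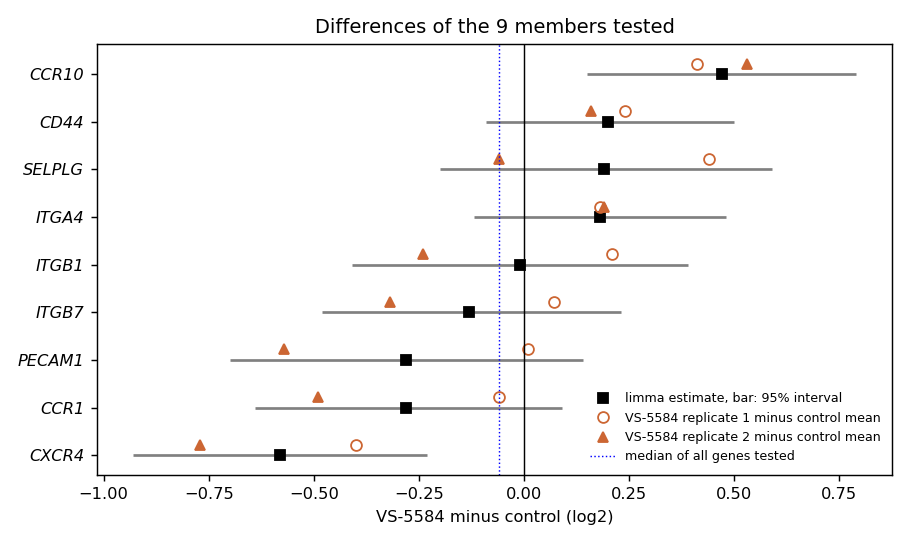
Black squares are limma log2 differences, VS-5584 minus control, of the 9 members tested, with 95% intervals as grey bars. Open circles and filled triangles are VS-5584 replicates 1 and 2 minus the control mean, and the dotted line is the median of all genes tested (-0.06). The intervals of CXCR4 (-0.93 to -0.23) and CCR10 (0.15 to 0.79) do not include 0, and those of the other 7 do.

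The integrin subunits are ITGA4, the alpha4 chain, and its partners ITGB1, with which it forms VLA-4, the receptor for VCAM1 and fibronectin, and ITGB7, with which it forms the receptor for MADCAM1 that is also used by myeloma cells. ITGA4 stood at 9.84 and 9.71 in control and at 9.95 and 9.96 in treated cells. The treated arrays were 0.01 apart and both above the controls, which were 0.13 apart. Its limma difference was 0.18 ± 0.13 (SE; 95% interval -0.12 to 0.48, adjusted p = 0.637), a 1.13-fold difference. ITGB1 stood at 8.43 and 8.14 in control and at 8.49 and 8.04 in treated cells. The replicates of each group were further apart, by 0.29 and 0.45, than the group means, and the limma difference was -0.01 ± 0.18 (SE; 95% interval -0.41 to 0.39, adjusted p = 0.986). Its sign turned to 0.13 after cyclic loess and 0.11 after quantile normalization. ITGB7 stood at 9.39 and 9.28 in control and at 9.40 and 9.02 in treated cells. VS-5584 replicate 1 was at the level of control replicate 1 and VS-5584 replicate 2 below both controls, so the groups overlapped. The limma difference was -0.13 ± 0.16 (SE; 95% interval -0.48 to 0.23, adjusted p = 0.782). The intervals of the 3 subunits include 0, and their outermost bounds were 0.48 for ITGA4 and -0.48 for ITGB7.

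CD44, the hyaluronan receptor, stood at 8.41 and 8.50 in control and at 8.70 and 8.62 in treated cells. All treated values lay above all control values, by 0.12 at the closest. The means were 8.45 ± 0.066 and 8.66 ± 0.055 (SD, n = 2), and the limma difference was 0.20 ± 0.13 (SE; 95% interval -0.09 to 0.50, adjusted p = 0.599). CD44 had 1 probe set, so standard and variant forms were not told apart. SELPLG stood at 6.99 and 7.14 in control and at 7.50 and 7.01 in treated cells. Only VS-5584 replicate 1 was above the controls, by 0.44 over their mean, while VS-5584 replicate 2 was at -0.06. The limma difference was 0.19 ± 0.18 (SE; 95% interval -0.20 to 0.59, adjusted p = 0.706). PECAM1 (CD31), an adhesion molecule that binds itself and CD38, stood at 6.51 and 6.34 in control and at 6.43 and 5.86 in treated cells. VS-5584 replicate 1 lay between the controls, and replicate 2 lay below them. The limma difference was -0.28 ± 0.19 (SE; 95% interval -0.70 to 0.14, adjusted p = 0.612). PECAM1 was at -0.57 without VS-5584 replicate 1, and without VS-5584 replicate 2 its difference was 0.0056. The annotation gives PECAM1 a further probe set, which lay at 4.44 and 4.48 in control and at 4.48 and 4.58 in treated cells, below the limit for dim genes, and it did not carry the lower value of VS-5584 replicate 2.

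The 2 treated arrays therefore ordered the members differently. On VS-5584 replicate 1 the members' median was 0.18 against the control mean, with 2 of 9 (CXCR4 and CCR1) below both controls, as were 34.6% of all genes tested. On VS-5584 replicate 2 it was -0.24, with 5 of 9 below both controls, as were 60.1% of all genes. Of the 9 members 7 were lower on replicate 2 than on replicate 1, as were 7962 of the 11026 genes tested. ITGA4 (0.18 and 0.19), CCR10 (0.41 and 0.53) and CD44 (0.24 and 0.16) were the tested members with like values on the 2 arrays. CXCR4, CCR1, PECAM1, ITGB7, ITGB1 and SELPLG each differed by 0.36 to 0.57 between them. The squeezed distribution of replicate 2 moved with these values, and its part in them was not tested beyond the scalings. After cyclic loess, which evens out differences between arrays that depend on intensity, CXCR4 was at -0.44, CCR1 at -0.14, ITGA4 at 0.28, CD44 at 0.34 and CCR10 at 0.49.

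**Figure D3:**
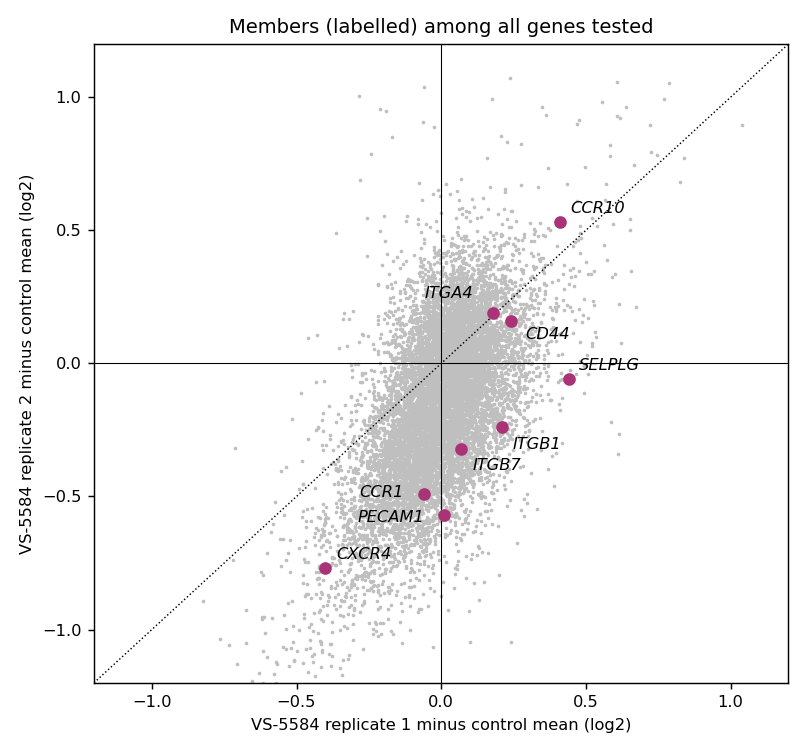
Each grey point is 1 of the genes tested, placed by its log2 difference from the control mean on VS-5584 replicate 1 (horizontal) and replicate 2 (vertical), and the 9 members tested are labelled. The dotted diagonal marks equal values, and 27 genes lie outside the axes, which end at 1.2. CXCR4 lies below 0 on both axes and CCR10 above 0 on both, while PECAM1, ITGB7, ITGB1 and SELPLG lie to the right of 0 and below it on the vertical axis.

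**Figure D4:**
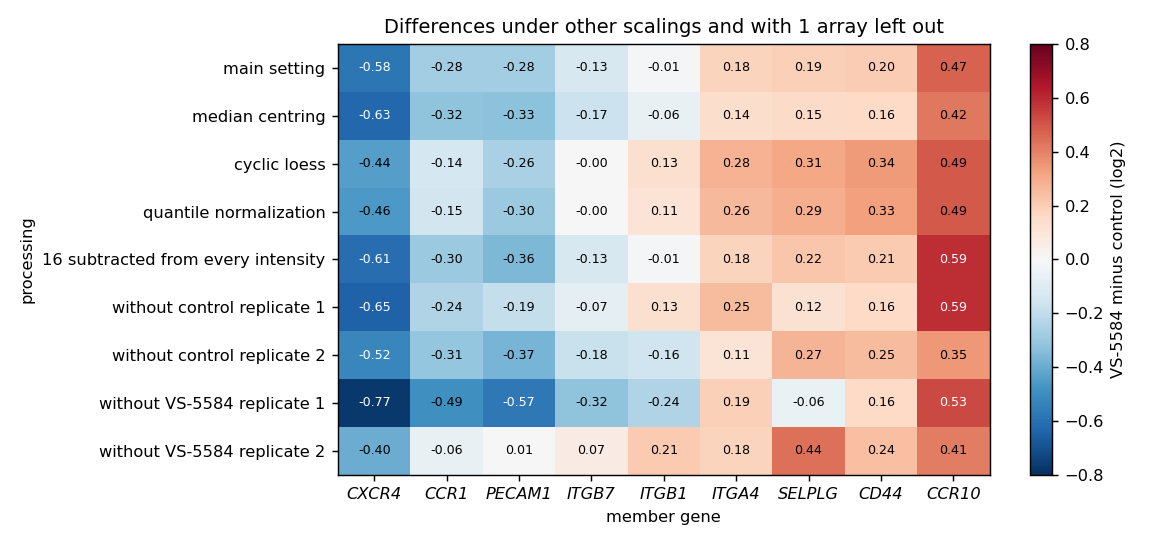
Colours and printed values give the log2 difference, VS-5584 minus control, of each member tested (columns) under the main setting, other scalings and with 1 array left out (rows). CXCR4 ran from -0.77 to -0.40 and CCR10 from 0.35 to 0.59 over these fits, and PECAM1 from -0.57 to 0.01.

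Other genes of the same pathway were set beside the members as 9 lists of 149 genes in all, of which 135 had a probe set of their own and 77 were tested. None passed limma's threshold in either direction. At an unadjusted p under 0.05, 6 were lower and 1 higher, and the ordinary two-sample test put 2 under that p, ST3GAL6 and VCL. The limma count of 7 was 32 without VS-5584 replicate 1, of which 16 passed, 0 without control replicate 1 and 4 without control replicate 2, beside 38.4%, 4.97% and 4.43% of all genes. Treated and control arrays were separate for 21 genes in the lower and 8 in the higher direction, beside 29.2% and 14.7% of all genes tested, so neither count stood above the general share. Of the 77 genes 54 were lower on average, where 62.7% of all genes tested were lower. The median was -0.10, beside -0.06 for all genes, and after cyclic loess it was -0.037. The list medians stayed small, and the lower genes below are mostly further apart from control on VS-5584 replicate 2.

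Few other chemokine receptors could be measured in OPM2: 2 of 12 with a probe set passed the limit for dim genes. CX3CR1, the fractalkine receptor, differed by -0.18 ± 0.15 (SE) and CXCR3, a receptor for interferon-induced chemokines, by 0.04 ± 0.14, with overlapping groups for both. The sign of CXCR3 turned to -0.0057 with median centring. Among ligands 3 of 14 were tested, with a median of 0.14 and 1 not overlapping, MADCAM1, a vessel ligand of the alpha4-beta7 integrin (0.14 ± 0.13, limma adjusted p = 0.707). MADCAM1 was higher, as were the separate groups of 14.7% of all genes. The ligand median was -0.28 on VS-5584 replicate 1 and 0.49 on replicate 2, beside -0.0022 and -0.14 for all genes. FN1, the gene of fibronectin, was at 5.69 on VS-5584 replicate 1 and 6.66 on replicate 2 around controls of 5.89 and 6.05, a pattern with no common direction. Without VS-5584 replicate 1 FN1 was at 0.69, and without VS-5584 replicate 2 it was at -0.28.

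Of the other integrin subunits 7 of 21 were tested. All 7 had a negative mean difference, where 62.7% of all genes tested were lower on average. Their median was -0.24, beside -0.06 for all genes. Groups were separate and lower for 2 of the 7, beside 29.2% of all genes, so this count did not stand above the general share. The 2 whose groups did not overlap were ITGB8 (-0.29 ± 0.16) and ITGAV (-0.24 ± 0.15), which pair as a receptor that activates latent TGF-beta (log2, SE, limma adjusted p = 0.556 and 0.571). Without VS-5584 replicate 1 they were at -0.49 and -0.39, and without VS-5584 replicate 2 at -0.079 and -0.094. The list's median was -0.011 on VS-5584 replicate 1 and -0.39 on replicate 2, and it was -0.10 after cyclic loess. Without VS-5584 replicate 2, 5 of 7 were lower, beside 5578 of the 11026 genes tested. So the lower values of this list came mainly from a single treated array.

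Genes that switch integrins on had 10 of 14 below 0 on average, where 62.7% of all genes tested were lower. Without VS-5584 replicate 2, 8 of 14 were lower, beside 5578 of the 11026 genes tested. The list median of -0.14 became -0.018 after cyclic loess, and that of all genes went from -0.06 to -0.010. RAP1A, the small GTPase that brings talin to integrins, stood at 6.85 and 6.96 in control and at 6.60 and 6.36 in treated cells. Its groups did not overlap, and its limma difference was -0.42 ± 0.14 (SE, unadjusted p = 0.0149, adjusted p = 0.391). VCL, the gene of vinculin, which links talin to actin, differed by -0.28 ± 0.13 with non-overlapping groups. Groups were separate and lower for 6 of the 14 and higher for 2, beside 29.2% and 14.7% of all genes. Downstream of the chemokine receptors, 14 of 17 genes had a negative difference, and 9 of 17 did without VS-5584 replicate 2. Of all 11026 genes tested, 6917 and 5578 were lower in these fits. The list median of -0.15 became -0.054 after cyclic loess. GNAI3, an inhibitory G protein alpha chain that chemokine receptors use, differed by -0.37 ± 0.15, and GRK2, a kinase that desensitises activated receptors including CXCR4, by -0.35 ± 0.14 (limma adjusted p = 0.440 and 0.452). Both had treated arrays below both controls. Groups of that list were separate and lower for 5 of the 17 and higher for 1, beside 29.2% and 14.7% of all genes. Without VS-5584 replicate 1 RAP1A, GNAI3 and GRK2 were at -0.54, -0.53 and -0.43. Without VS-5584 replicate 2 they were at -0.30, -0.22 and -0.27.

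Genes handling sphingosine 1-phosphate and tissue exit, 8 tested, had a median of -0.01 and 1 gene with separate groups, GNA13, a G protein alpha chain that restrains migration, at -0.14 ± 0.13 (log2, SE). Its value was 0.0048 after cyclic loess. S1PR2, the receptor that signals through it, differed by 0.16 ± 0.14. No member of this list had an unadjusted p under 0.05 (limma), beside 10.4% of all genes tested. Its 1 gene with separate groups, in the lower direction, stood beside 29.2% of all genes lower and 14.7% higher.

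Selectin ligands are built on PSGL-1 by glycosyltransferases and sulfotransferases, and 7 of these genes were tested. ST3GAL6, a sialyltransferase that helps make sialyl Lewis x, stood at 8.01 and 8.0 in control and at 8.53 and 8.35 in treated cells. The treated arrays lay well above the tightly placed controls, and the limma difference was 0.44 ± 0.13 (SE, unadjusted p = 0.00957, adjusted p = 0.369). TPST1, which sulfates tyrosines on PSGL-1 and on chemokine receptors, stood at 7.57 and 7.40 in control and at 7.19 and 6.90 in treated cells. Its groups were separate in the other direction, with a limma difference of -0.44 ± 0.15 (SE, unadjusted p = 0.0161, adjusted p = 0.400). TPST1 was at -0.58 without VS-5584 replicate 1 and at -0.29 without VS-5584 replicate 2. Of the 7 genes 2 had separate groups in the lower and 1 in the higher direction, beside 29.2% and 14.7% of all genes.

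Among hyaluronan genes 5 were tested. HMMR, a hyaluronan receptor that also acts on the mitotic spindle, stood at 8.84 and 8.64 in control and at 8.49 and 8.10 in treated cells. It was lower on both treated arrays, by -0.44 ± 0.16 (limma log2 difference, SE, unadjusted p = 0.0242, adjusted p = 0.426). Its difference was -0.63 without VS-5584 replicate 1 and -0.24 without VS-5584 replicate 2. ADAM10, a protease that sheds CD44, differed by 0.11 ± 0.13. Of these 5 genes 1 had separate groups in the lower and 1 in the higher direction, beside 29.2% and 14.7% of all genes. Among immunoglobulin-like and other adhesion molecules, 14 tested, 10 had a negative mean difference and the median was -0.07. Over all genes tested 62.7% were lower and the median was -0.06. CD58 (LFA-3), the ligand of CD2 on T cells, stood at 7.11 and 6.91 in control and at 6.57 and 6.33 in treated cells. Both treated arrays were below both controls, and the limma difference was -0.56 ± 0.15 (SE, unadjusted p = 0.00392, adjusted p = 0.307), close to that of CXCR4 in size. CD58 was at -0.68 without VS-5584 replicate 1 and at -0.44 without VS-5584 replicate 2. ALCAM, which binds CD6 and itself, differed by 0.31 ± 0.14 with treated arrays above both controls (limma adjusted p = 0.481). Of these 14 genes 4 had separate groups in the lower and 2 in the higher direction, beside 29.2% and 14.7% of all genes.

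**Figure D5:**
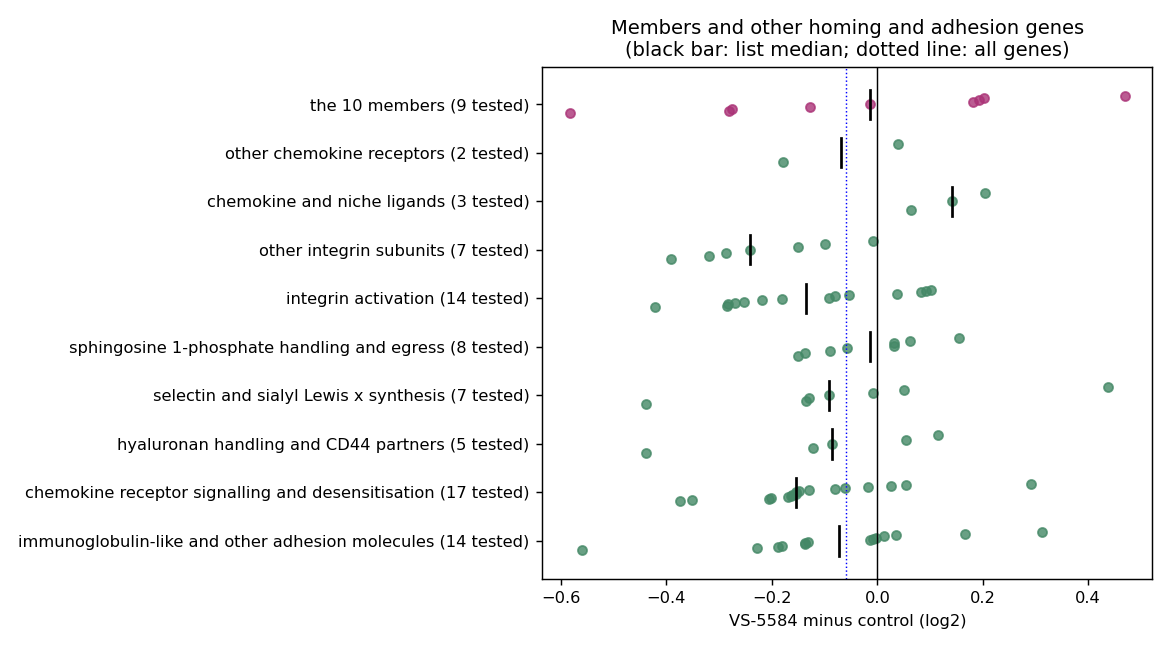
Each point is the log2 difference, VS-5584 minus control, of 1 tested gene, with the 9 members tested in the top row and the 9 pathway lists under them. Black bars are list medians and the dotted line is the median of all genes tested (-0.06). The members spread from -0.58 (CXCR4) to 0.47 (CCR10), and all 7 other integrin subunits lie below 0.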

How the data were processed

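Expression was measured on 4 one-colour arrays of biotin-labelled cDNA from OPM2 cells, 2 control and 2 treated. The deposited values are intensities, 1 for each probe set on each array, on a linear scale. RMA, with no version, is the authors' method per the submitters' processing notes. The step from RMA to linear values and any added constant, which would shrink fold changes of dim genes, are not given in the sources used here. Signal over background was not assessed, and precision is limited by having 4 arrays.

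Intensities were turned into log2 values and not normalized again. Of 28869 probe sets 19310 carried 1 gene, 1752 several and 7807 none listed, and only the first were named. Symbols were taken from RefSeq by gene ID for 19279. The 40% of genes with the lowest mean over all arrays were left out. The test was limma 3.58.1 under R 4.3.3 (lmFit, then eBayes with no trend). P-values were two-sided and adjusted by Benjamini-Hochberg over 11026 genes, with a threshold of 0.05. SE and 95% intervals are limma's. On simulated data for these 11026 genes, 93% of 100 genes changed 2-fold and 100% of 100 changed 4-fold were called, with 9 unchanged genes. The simulated noise was independent between arrays and left out the squeezed distribution of VS-5584 replicate 2. These shares therefore need not hold for the real arrays. There 0 of 11026 genes passed, although log2 differences ran from -1.62 to 1.3.

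The members, gene lists and tests were chosen with earlier results of these data known. All members are named, and from each pathway list the 2 tested genes with the smallest unadjusted p, since none passed, and from each marker list the brightest gene. SDC1 and CD38 stand in both a pathway and a marker list, as does CXCL12. Alternatives were median centring, cyclic loess, quantile normalization, a replicate block, other limits for dim genes, an intensity trend, an ordinary test, other probe set rules, subtraction of 16 and leaving out each array. Figures were drawn with matplotlib 3.10.9.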

Additional observations from a re-analysis of the deposited data

How the results depend on the processing

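The count of genes past the threshold, 0 in the main fit, was 16 after cyclic loess, 2 after quantile normalization, 2 after subtracting 16 from every intensity, 58 with the lowest 60% of genes left out, 80 with an intensity trend and 432 with the replicate number as a block. It ran from 2 to 2636 with 1 array left out. Members past the threshold, 0 in the main fit, were 1 with the replicate block, CXCR4 (-0.58, limma adjusted p = 0.0118), and from 0 to 4 with 1 array left out, the 4 being CXCR4, CCR10, CCR1 and PECAM1 without VS-5584 replicate 1. Of the pathway genes 1 passed with the block, CD58, and from 0 to 16 with 1 array left out. Same-numbered arrays deviated from their group means with a correlation of 0.156 across genes, but with 2 pairs and no shared source in the labels they share only a number. Members with an unadjusted p under 0.05, 2 in the main fit, were 5 after cyclic loess, 0 with the ordinary test and 1 to 5 with 1 array left out, beside 12.3%, 4.46% and 4.43 to 38.4% of all genes. Members with separate groups, 5 of 9, ran from 5 to 8 with 1 array left out, where 67.0 to 85.4% of all genes had separate groups.

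Over the alternatives with all 4 arrays, 93 of 96 values of members kept their direction and their side of the threshold. ITGB1 turned to 0.13 after cyclic loess and 0.11 after quantile normalization, CXCR3 to -0.0057 with median centring and GNA13 to 0.0048 after cyclic loess. With 1 array left out, 27 of 36 did. ITGB1 reached 0.13 without control replicate 1 and 0.21 without VS-5584 replicate 2, between -0.24 and 0.21 in all. Over these fits ITGB7 ran from -0.32 to 0.067, PECAM1 from -0.57 to 0.0056, FN1 from -0.28 to 0.69 and SELPLG from -0.056 to 0.44. The outer value of opposite sign came without VS-5584 replicate 2 for the first 3 and without VS-5584 replicate 1 for SELPLG. CXCR3 ran from -0.062 without control replicate 1 to 0.14 without control replicate 2. The cause was not tested. Left with 1 array, a group is assumed to vary like the other. PECAM1 gave no value under 3 of the alternatives, where it fell under the limit for dim genes, and S1PR1 gave a value only with no limit.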
